A study of Mus musculus with 6 samples.

Results

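The genes of the NADPH oxidase were followed in bulk RNA-seq of the right hippocampus after bilateral carotid artery stenosis (BCAS). The 7 genes, Cybb, Cyba, Ncf1, Ncf4, Rac2, Rac1 and Nox4, were chosen by name and matched through the symbols of the Ensembl identifiers, and they make up 7 of the 54752 genes with counts. All 7 passed the filter on low counts, which kept 18617 genes. The 6 libraries came from 6 wild-type male C57BL/6 mice (C57BL/6 J in the methods), aged 14 weeks per the labels, with 1 library per mouse. In the 3 BCAS mice both common carotid arteries were wrapped with a microcoil, the narrower on the right, the side that was sampled. The 3 sham mice had the same operation without coils, and all hippocampi were taken 3 weeks after surgery. The comparison asks which oxidase genes differ in the hippocampus after this chronic fall in blood flow. The coil narrows the arteries and does not close them. From stained sections of BCAS mice, the paper reports hippocampal atrophy, neuronal loss and infarct lesions with activated microglia on the right side. It does not state how far the sequenced hippocampi held such lesions. The whole hippocampus was used, so each value averages over all of its cells and subfields, damaged or not.

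The NADPH oxidase of phagocytes passes electrons from NADPH across a membrane onto oxygen and makes superoxide. Cybb encodes gp91phox (NOX2), the catalytic subunit, and Cyba encodes p22phox, which holds it in the membrane. Cytosolic subunits, among them p47phox (Ncf1) and p40phox (Ncf4), join the membrane pair when the cell is activated, together with a Rac GTPase. Rac2 is the form found mainly in blood-derived cells, whereas Rac1 is present in nearly all cells and has many other tasks. Nox4 is another catalytic subunit. It also pairs with p22phox, makes mainly hydrogen peroxide and works without the cytosolic subunits. In brain, microglia are the main cells with the phagocyte oxidase, and Nox4 is best known from cells of vessels and connective tissue.

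The starts of Cybb, Ncf1 and Nox4 are shown because the phagocyte oxidase genes are known targets of PU.1, IRF and STAT factors, and transcripts of several such factors are given further on. RefSeq (GRCm38.p6, the assembly of mm10) gave a start for 4 of the 7 genes, Cybb, Cyba, Ncf1 and Nox4. Each line holds the 250 bases before the RefSeq start, read along the gene, at chrX:9469325-9469574 on the minus strand for Cybb, chr5:134229626-134229875 on the minus strand for Ncf1 and chr7:87246399-87246648 on the plus strand for Nox4. The Cybb and Nox4 windows lie inside the span of the gene in the annotation of the counts, which has transcripts that begin further upstream. None of the windows overlaps an annotated exon of its own gene, in a later GENCODE release than that of the counts. Exons of other genes were not compared. Capitals mark matches on either strand to GAAA, any 2 bases, GAAA (the core of an interferon-stimulated response element) or to TTC, any 3 bases, GAA (a STAT site).
Cybb: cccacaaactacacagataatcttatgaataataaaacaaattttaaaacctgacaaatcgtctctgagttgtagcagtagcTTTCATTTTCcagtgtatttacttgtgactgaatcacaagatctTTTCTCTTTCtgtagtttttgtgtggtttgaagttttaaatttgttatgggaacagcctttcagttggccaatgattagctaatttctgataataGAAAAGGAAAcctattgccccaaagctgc
Ncf1: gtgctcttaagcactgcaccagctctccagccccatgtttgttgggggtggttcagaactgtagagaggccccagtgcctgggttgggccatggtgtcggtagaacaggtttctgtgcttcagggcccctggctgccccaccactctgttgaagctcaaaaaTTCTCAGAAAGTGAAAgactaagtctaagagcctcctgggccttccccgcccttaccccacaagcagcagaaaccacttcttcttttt
Nox4: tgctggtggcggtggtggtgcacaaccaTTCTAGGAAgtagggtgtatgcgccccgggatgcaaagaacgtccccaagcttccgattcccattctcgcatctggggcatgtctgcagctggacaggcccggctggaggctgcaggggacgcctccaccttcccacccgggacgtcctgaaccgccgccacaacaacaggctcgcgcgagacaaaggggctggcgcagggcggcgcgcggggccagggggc
The Cybb window held 3 matches to the response element core, at 168 to 159, 124 to 115 and 29 to 20 bases before the start. The first 2 read on the opposite strand. The Ncf1 window held 1 such match at 82 to 73 bases, which overlaps a STAT match at 88 to 80 bases. The Nox4 window held a STAT match at 222 to 214 bases, and the Cyba window (chr8:122432941-122433190, minus strand) held no match. Among 32851 windows of the same length, from 27025 genes, 2.98% held the response element core and 7.02% the STAT site. The core of PU.1 sites, GAGGAA, was in 23.3% of all windows and its longer form, with GT after it, in 2.44%, and these letters were in none of the 4 windows. A match describes letters and does not show that a factor binds there.

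The libraries held 29652456 to 35607098 counts, in which each mate of a read pair counted as a read. Values are given as CPM, counts scaled to a common library total with TMM factors, and 3 counts, taken as the limit of detection for counting error alone, equal 0.0875 to 0.0995 CPM. The presence of neuronal tissue was checked by 9 neuron markers, whose summed level was 7342 to 7884 CPM in sham and 4127 to 5908 CPM in BCAS libraries. This sum cannot tell hippocampus from other tissue rich in neurons. A gene was called when edgeR's adjusted P was under 0.05 and its log2 fold change was beyond 1 in either direction. By this rule 8.47% of all tested genes were higher in BCAS mice and 0.999% were lower. The lower calls, 186 in all, were 96 without BCAS mouse 3 and 117 without sham mouse 3. With the adjusted P alone, 18% were higher and 13.2% lower. The median log2 fold change of all tested genes was 0.02.

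Of the 7 oxidase genes, 6 were called higher in BCAS mice, against 8.47% of all tested genes. These genes and the lists below were chosen with earlier results of these data known. The share of all tested genes therefore stands beside their counts as a description and not as a test. All 5 phagocyte oxidase genes of the set (Cybb, Cyba, Ncf1, Ncf4 and Rac2) rose, with log2 fold changes of 3.26 to 3.97 and a median of 3.45. Nox4 rose by 1.61 on the log2 scale, from a low level, and its call was lost when any of 4 of the 6 mice was left out, which leaves 5 genes called. The log2 fold change of Rac1 was -0.02 and did not pass the test. In these 6 called genes every BCAS mouse lay above every sham mouse in CPM, which was also the case for 25.3% of all tested genes. The measurements are of whole tissue, in which more cells of a type and more RNA per cell cannot be told apart.

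**Figure D1:**
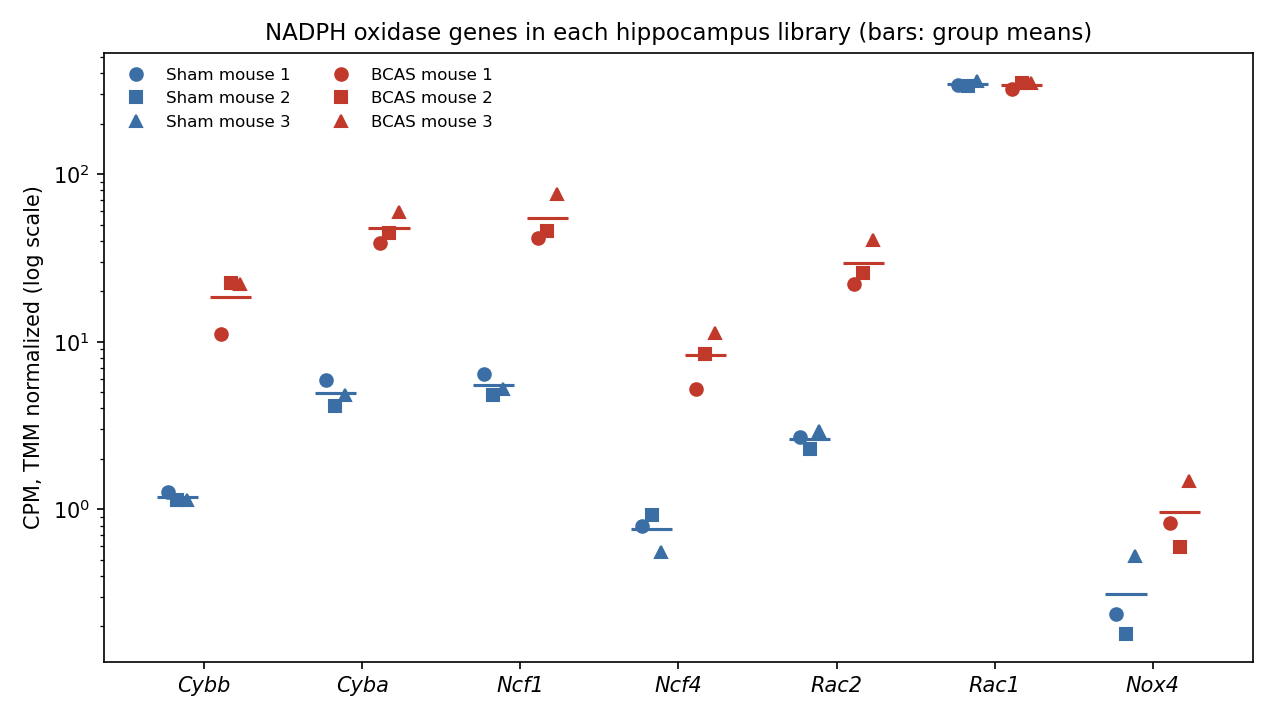
CPM of the 7 oxidase genes (log axis) in each of the 3 sham libraries (blue) and 3 BCAS libraries (red), with marker shapes for the mouse number within its group and bars for the group means. The 5 phagocyte genes and Nox4 show no overlap between groups, whereas the Rac1 libraries of both groups lie between 321 and 361.7 CPM.

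The catalytic subunit gene Cybb (ENSMUSG00000015340.10, chrX:9435252-9487771, minus strand, mm10) had counts of 43, 38 and 39 in sham mice 1 to 3, and of 361, 675 and 689 in BCAS mice 1 to 3. In CPM these are 1.27, 1.14 and 1.14 in sham mice and 11.1, 22.4 and 22.1 in BCAS mice. The sham libraries lay close together, and BCAS mouse 1 was well below the other two BCAS mice while still far above every sham mouse. The mean went from 1.18 ± 0.0761 CPM (SD, n = 3) to 18.5 ± 6.42 CPM, a 15.7-fold difference. The log2 fold change was 3.97 (SE 0.292, 95% interval 3.31 to 4.63) with an adjusted P of 3.62e-05 in edgeR. Cybb had the largest log2 fold change of the 7 genes, and 0.795% of all tested genes had a larger one.

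Its membrane partner Cyba (ENSMUSG00000006519.11, chr8:122424776-122432930, minus strand) was counted 200, 138 and 166 times in sham mice, against 1255, 1344 and 1863 times in BCAS mice. These are 5.90, 4.13 and 4.84 CPM against 38.6, 44.6 and 59.7 CPM. The groups were far apart, with BCAS mouse 3 the highest. The mean rose 9.61-fold, from 4.96 ± 0.892 to 47.6 ± 10.9 CPM (SD, n = 3), with a log2 fold change of 3.26 (SE 0.196) and an adjusted P of 1.81e-05 in edgeR. Within each library the log2 CPM of Cybb minus that of Cyba was -2.16, -1.81 and -2.03 in sham mice and -1.79, -0.99 and -1.43 in BCAS mice. The distance between them was smaller in every BCAS mouse, by 0.60 on average (exact two-sided permutation test, P = 0.1, adjusted P = 0.122 over 11 such differences). With 3 mice against 3 this exact test cannot go below P = 0.1, so it could not have passed the threshold. The difference was 0.389 without BCAS mouse 2 and 0.514 to 0.789 when any other mouse was left out. With a prior count of 5 in the log2 CPM it was 0.524, and the groups then overlapped (exact two-sided permutation test, P = 0.2).

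Among the cytosolic subunits, Ncf1 encodes the organizer p47phox, which on phosphorylation carries the others to the membrane. Ncf1 (ENSMUSG00000015950.13, chr5:134220053-134229625, minus strand) reached 219, 161 and 180 counts in sham mice, against 1347, 1391 and 2385 in BCAS mice, or 6.46, 4.82 and 5.25 CPM against 41.5, 46.1 and 76.5 CPM. BCAS mouse 3 stood above the other two BCAS mice, and the groups did not overlap. The mean rose 9.92-fold, from 5.51 ± 0.853 to 54.7 ± 19.0 CPM (SD, n = 3). The log2 fold change was 3.31 (SE 0.244) and the adjusted P 3.68e-05 in edgeR. Of its 3663 exonic bases, 408 (11.1%) are shared with Gtf2ird2 on the other strand, where reads could not be assigned because strand was ignored. Gtf2ird2 had 577 to 643 counts in sham and 530 to 541 counts in BCAS libraries.

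Ncf4, for the subunit p40phox that binds a membrane lipid of the phagosome, was the least abundant phagocyte gene of the set by counts. It had 27, 31 and 19 counts in sham mice, against 170, 254 and 351 in BCAS mice (ENSMUSG00000071715.12, chr15:78244801-78262580, plus strand). The levels were 0.797, 0.928 and 0.554 CPM in sham mice against 5.23, 8.42 and 11.2 CPM in BCAS mice, with BCAS mouse 1 the lowest of its group. The mean went from 0.760 ± 0.190 to 8.30 ± 3.01 CPM (SD, n = 3), and the log2 fold change was 3.45 (SE 0.333, adjusted P = 0.000136 in edgeR). The difference in log2 CPM between Ncf1 and Ncf4 was 2.93, 2.30 and 3.11 in sham mice and 2.97, 2.45 and 2.76 in BCAS mice, a shift of -0.06 with overlapping groups (exact two-sided permutation test, P = 0.9, adjusted P = 0.9).

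Of the GTPase genes, Rac2 was called and Rac1 was not. Rac2 (ENSMUSG00000033220.7, chr15:78559167-78572783, minus strand) had 91, 77 and 100 counts in sham mice, against 722, 775 and 1270 in BCAS mice, or 2.69, 2.31 and 2.92 CPM against 22.2, 25.7 and 40.7 CPM. The groups were far apart and BCAS mouse 3 was again the highest. The mean rose 11.2-fold, from 2.64 ± 0.309 to 29.5 ± 9.83 CPM (SD, n = 3), with a log2 fold change of 3.48 (SE 0.243, 95% interval 2.93 to 4.04) and an adjusted P of 2.75e-05 in edgeR.

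Rac1 (ENSMUSG00000001847.14, chr5:143503634-143528036, minus strand) had 11481, 11292 and 12406 counts in sham mice, against 10429, 10611 and 10901 in BCAS mice. These are 338.8, 338.0 and 361.7 CPM against 321.0, 351.8 and 349.5 CPM, and the groups overlapped. The means were 346.2 ± 13.5 and 340.8 ± 17.2 CPM (SD, n = 3). The log2 fold change was -0.02 (SE 0.080) with an adjusted P of 0.857 in edgeR, and its 95% interval ran from -0.20 to 0.16. Its sign turned to 0.05 when library totals replaced TMM. Of the 4496 exonic bases of Rac1, 2309 (51.4%) are shared with Daglb on the other strand, where reads could not be assigned. Daglb, a lipase gene, had 853 to 1011 counts in sham and 1236 to 1656 counts in BCAS libraries. Rac3, a Rac gene high in neurons, had a log2 fold change of -0.25 (SE 0.131, adjusted P = 0.177 in edgeR).

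The log2 CPM of Rac2 minus that of Rac1 was -6.95, -7.16 and -6.92 in sham mice and -3.85, -3.77 and -3.10 in BCAS mice. Every BCAS mouse was higher, by 3.44 on average, with the smallest P that the exact permutation test allows (P = 0.1, two-sided, adjusted P = 0.122). Per length of exon (RPKM, CPM divided by exonic length in kilobases), Rac2 made up 0.976%, 0.838% and 0.970% of the summed Rac1, Rac2 and Rac3 level in sham mice. In BCAS mice it made up 7.995%, 8.34% and 12.96%. Rac1 remained the main Rac transcript, with 84.3% ± 1.07 in sham and 78.4% ± 1.51 in BCAS mice (SD, n = 3). When Rac1 was divided by its 2187 unshared exonic bases, a setting chosen after the overlap was seen, the share of Rac2 was 0.491% ± 0.0424 in sham and 5.35% ± 1.57 in BCAS mice.

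**Figure D2:**
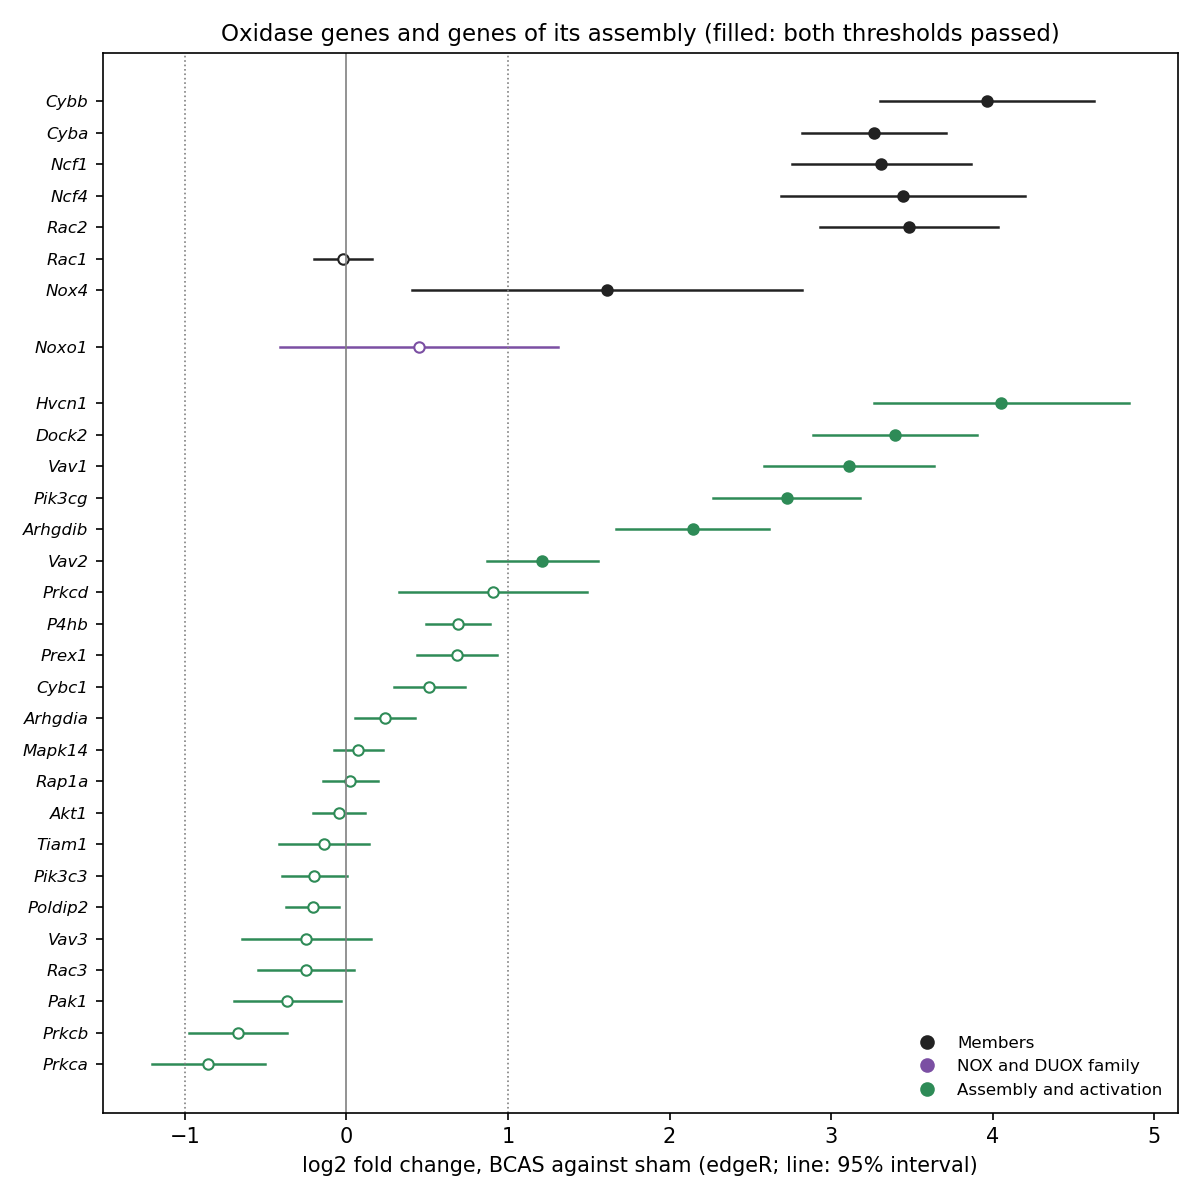
The log2 fold changes of BCAS against sham mice from edgeR for the 7 oxidase genes (black), Noxo1 of the NOX and DUOX family (purple) and 22 genes of oxidase assembly and activation (green), where lines are 95% intervals, filled points passed both thresholds and dotted lines mark -1 and 1. The 5 phagocyte genes lie between 3.26 and 3.97, Nox4 at 1.61 with a wide interval and Rac1 at -0.02.

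Nox4 (ENSMUSG00000030562.17, chr7:87246096-87398710, plus strand) was detected at low counts and passed the filter on low counts through the BCAS libraries. It had 8, 6 and 18 counts in sham mice, against 27, 18 and 46 in BCAS mice, which are 0.236, 0.180 and 0.525 CPM against 0.831, 0.597 and 1.48 CPM. The groups did not overlap in CPM, but sham mouse 3 and BCAS mouse 2 had the same raw count. The mean was 0.314 ± 0.185 CPM in sham and 0.968 ± 0.455 CPM in BCAS mice (SD, n = 3), a 3.09-fold difference. The log2 fold change was 1.61 (SE 0.532, 95% interval 0.41 to 2.82) with an adjusted P of 0.0474 in edgeR, just under the threshold. The call was lost without sham mouse 1 (adjusted P = 0.148), sham mouse 2 (0.144), BCAS mouse 1 (0.0758) or BCAS mouse 3 (0.189), and over all alternatives the adjusted P ran from 0.0277 to 0.743.

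Between the catalytic subunits, the share of Nox4 was lower in every BCAS mouse than in every sham mouse. Per length, Nox4 made up 11.3%, 9.77% and 24.0% of the summed Cybb and Nox4 level in sham mice and 4.88%, 1.80% and 4.38% in BCAS mice. The log2 CPM of Cybb minus that of Nox4 went from 1.84 ± 0.70 to 4.20 ± 0.78 (SD, n = 3), a shift of 2.36 with no overlap between the groups (exact two-sided permutation test, P = 0.1, adjusted P = 0.122). The level of Cyba, the partner of both, was 155.5 ± 70.0 times that of Nox4 per length in sham mice and 439.3 ± 149 times in BCAS mice. Nox1, Nox3, Noxa1, Duox1, Duox2, Duoxa1 and Duoxa2 did not pass the filter, with at most 14 counts in any library. Noxo1, the organizer of the NOX1 enzyme, had 0.658 ± 0.1697 CPM in sham and 0.900 ± 0.238 CPM in BCAS mice (SD, n = 3) and did not pass the test (adjusted P = 0.405 in edgeR).

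Per length of exon, the order in sham mice ran from Rac1 (77.0 RPKM) through Cyba (4.77), Ncf1 (1.504), Rac2 (0.849), Ncf4 (0.376) and Cybb (0.203) to Nox4 (0.0370). No neighbours in this order overlapped between the sham libraries. In BCAS mice the order was the same, at 75.8, 45.9, 14.9, 9.52, 4.11, 3.19 and 0.114 RPKM. There Ncf1 (11.3 to 20.9 RPKM) and Rac2 (7.16 to 13.1) overlapped between mice, as did Ncf4 (2.59 to 5.57) and Cybb (1.91 to 3.85), although within each BCAS mouse Ncf1 was above Rac2 and Ncf4 above Cybb. The RPKM of Cyba was 23.4 ± 2.87 times that of Cybb in sham mice and 15.2 ± 4.15 times in BCAS mice (SD, n = 3). The level of Rac1 was 158.3 and 155.8 RPKM with its unshared length, so the head of the order did not depend on the overlap.

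The phagocyte genes were also set against microglia markers in the same library. All 14 of 14 microglia markers rose, against 8.47% of all tested genes called higher, by 1.54 (P2ry12) to 3.95 (C1qa) on the log2 scale with a median of 2.86, and their summed level was 448.6 to 472.6 CPM in sham and 2926 to 4860 CPM in BCAS libraries. The mean log2 CPM of these markers was 4.65, 4.58 and 4.69 in sham mice and 7.13, 7.23 and 7.87 in BCAS mice, lowest in BCAS mouse 1 and highest in BCAS mouse 3, as for 4 of the 5 phagocyte genes. Cybb also had its lowest BCAS value in mouse 1. Minus this mean, Cybb shifted by 1.06, Rac2 by 0.64, Ncf1 by 0.48 and Cyba by 0.47 (log2), each with no overlap between the groups and an exact permutation P of 0.1 (two-sided, adjusted P = 0.122). Ncf4 shifted by 0.54 with overlapping groups (exact permutation P = 0.2, adjusted P = 0.22), and by 0.319 without sham mouse 3. Rac1 shifted by -2.80 and Nox4 by -1.30 (exact permutation P = 0.1 for each, adjusted P = 0.122). These shifts depend on the markers in the mean. C1qa, C1qb (3.80) and C1qc (3.74) had larger log2 fold changes than Cyba, Ncf1, Ncf4 and Rac2, and the other markers had smaller ones. The part of the microglia markers in the rise of the oxidase genes was not tested.

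**Figure D3:**
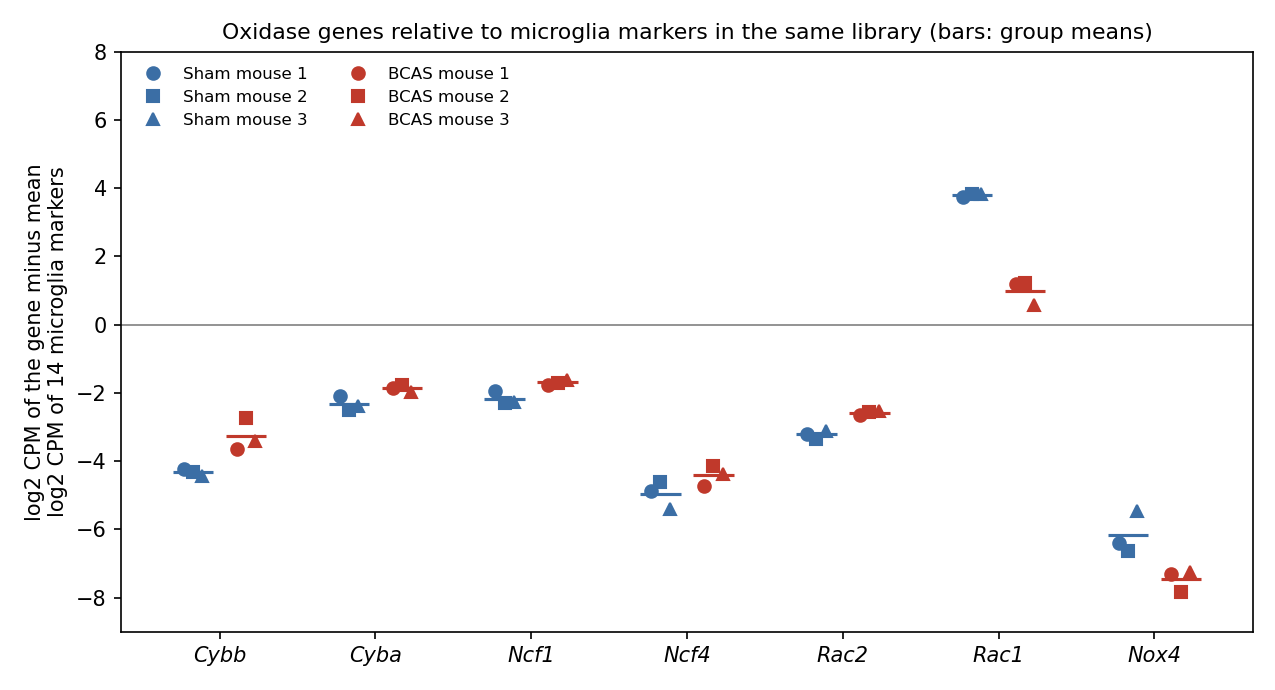
The log2 CPM of each oxidase gene minus the mean log2 CPM of 14 microglia markers in the same library, for 3 sham (blue) and 3 BCAS (red) mice, with bars for group means. Cybb lay at -4.33 in sham and -3.27 in BCAS mice on average, Rac1 at 3.79 and 1.00, and Nox4 lay at -6.16 and -7.46.

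Other cells that can carry the phagocyte oxidase were checked by their markers, whose counts stand beside the 8.47% of all tested genes called higher. Among monocyte markers, 3 of 4 tested genes (Ccr2, Ly6c2 and Plac8) were called higher, and the summed level of the list was 0.449 to 1.05 CPM in sham and 5.54 to 11.2 CPM in BCAS libraries. Among markers of border macrophages, which line vessels and meninges, 5 of 7 were called higher, with sums of 10.51 to 14.9 CPM in sham and 29.1 to 37.4 CPM in BCAS libraries. Lymphocyte markers, which rose in 7 of 8 tested genes, summed to 1.06 to 1.53 CPM in sham and 8.55 to 10.4 CPM in BCAS libraries. Ly6c2, Plac8, the border macrophage gene Ms4a7 and the lymphocyte genes Cd3d, Cd3e, Cd3g, Cd8a, Cd4, Cd79b and Nkg7 had low sham counts. These genes passed the filter on low counts through the BCAS libraries, so the filter partly set these numbers of called genes. Of 11 neutrophil markers only 2 passed the filter, S100a9 with an adjusted P of 0.202 and Mmp8 with an adjusted P of 0.502 in edgeR. The neutrophil sums overlapped, at 0.928 to 3.50 CPM in sham and 1.05 to 4.31 CPM in BCAS libraries, and the defining gene Ly6g had 0 counts in all libraries. The part of monocytes, border macrophages and lymphocytes in the oxidase signal was not tested.

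For Nox4, markers of vessels and connective tissue were set beside its rise. Endothelial markers had a median log2 fold change of 0.49, and 4 of 7 passed the adjusted P, all of them higher but below the fold threshold, where 18% of all tested genes were higher by the adjusted P alone. Of 7 pericyte and smooth muscle markers 1, Abcc9, was called higher, beside 8.47% of all tested genes, and 3 of 7 were higher by the adjusted P alone, beside 18%. The list had a median of 0.35. Markers of meningeal fibroblasts, a list added after the genes nearest to Nox4 were seen, summed to 105.4 to 211.8 CPM in sham and 225.1 to 364.3 CPM in BCAS libraries, with 4 of 8 called higher, against the same 8.47%, and a median of 1.01. The part of these cells in the Nox4 values was not tested. Choroid plexus markers, added at the same time, summed to 69.5 to 4068 CPM in sham and 39.8 to 5899 CPM in BCAS libraries, which overlapped.

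The genes with the most similar profile were found among 15631 tested genes with a mean of at least 1 CPM over all 6 libraries, by the root mean square distance of centred log2 CPM over the 6 libraries. Rac2 had the closest match of the phagocyte genes, with Cd53, a tetraspanin of leukocytes (distance 0.0494), Laptm5, a lysosomal membrane protein of blood cells (0.0651), and Dock2, a Rac exchange factor of leukocytes (0.0880). Cyba was nearest to another member, Ncf1 (0.10), followed by Arhgap45 and Hcls1. For Ncf1 the nearest were Iqgap3 (0.0710), Themis2 (0.0884) and the costimulatory gene Cd86 (0.0981). For Ncf4 they were Tmem273 (0.113), Rhoh and F9. Cybb had less close matches, led by Myo1f, a myosin of immune cells (0.17), Lgals3, for galectin 3 (0.197), and Ctss, the lysosomal protease cathepsin S (0.199). Rac1 lay nearest to Ccz1 (0.0152), Vipas39 and Plaa, which had log2 fold changes of -0.03, -0.02 and -0.03. The nearest genes of Nox4 were Syt15 (0.164), Omd (0.174), for an extracellular matrix protein, and Svep1 (0.179). All these profiles share the same 6 libraries, so a difference between the groups enters every distance. Of the genes named here Iqgap3, Themis2, Tmem273, Rhoh and F9 had sham means below 1 CPM and passed this minimum through the BCAS libraries.

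Of 22 genes for assembly and activation of the oxidase, 6 were called higher, against 8.47% of all tested genes. By the adjusted P alone, 10 of 22 were higher and 2 lower, beside 18% and 13.2% of all tested genes. The lower ones were Prkcb and Prkca (log2 fold change -0.855, adjusted P = 0.00368 in edgeR), and Prkca was named after its values were seen. The median log2 fold change of the list was 0.16, beside 0.02 for all tested genes. The largest was Hvcn1, the proton channel that balances the charge moved by the oxidase, which went from 0.767 ± 0.339 to 12.8 ± 4.35 CPM (SD, n = 3; log2 fold change 4.05, SE 0.347, adjusted P = 7.26e-05 in edgeR). Dock2 followed, from 3.76 ± 0.121 to 39.6 ± 12.6 CPM, with a log2 fold change of 3.40. The other 4 called genes, named after their values were seen, were the exchange factors Vav1 (3.11) and Vav2 (1.21), the kinase subunit gene Pik3cg (2.73) and Arhgdib (2.14), for an inhibitor of small GTPases of leukocytes. The 3 genes of the list with the highest CPM were not called. Prkcb, for a kinase that can phosphorylate p47phox, had 358.9 ± 12.4 CPM in sham and 225.8 ± 45.8 CPM in BCAS mice (log2 fold change -0.67, adjusted P = 0.00622 in edgeR), which passed the adjusted P and not the fold threshold. Pak1 (-0.37, adjusted P = 0.091) and Arhgdia (0.24, adjusted P = 0.0557) did not pass. Among the 9 neuron markers, 6 were lower by the adjusted P alone, beside 13.2% of all tested genes, and their median was -0.56. The part of neurons in the lower Prkcb and Prkca values was not tested. Cybc1, for the chaperone of the gp91phox and p22phox pair, had 20.3 ± 1.27 CPM in sham and 28.9 ± 1.58 CPM in BCAS mice (SD, n = 3). Its log2 fold change of 0.51 passed the adjusted P (0.00472) but not the fold threshold, and Cybc1 too is named after its values were seen.

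Of 6 genes for factors that drive the phagocyte oxidase genes, 5 were called higher, against 8.47% of all tested genes, with a median log2 fold change of 1.72. Irf8, of the myeloid interferon regulatory factor, rose from 5.51 ± 0.901 to 89.0 ± 27.1 CPM (SD, n = 3), by 4.02 on the log2 scale (SE 0.230, adjusted P = 1.6e-05 in edgeR). Spi1, for PU.1, rose from 4.15 ± 1.504 to 35.9 ± 9.11 CPM, by 3.11 (SE 0.272). Cebpa (2.05), Elf1 (1.38) and Irf1 (1.34) were also called. Cebpb had a log2 fold change of -0.06 with an adjusted P of 0.697. Spi1 and Irf8 are themselves myeloid genes, and whether these factors drove the oxidase genes here was not tested.

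**Figure D4:**
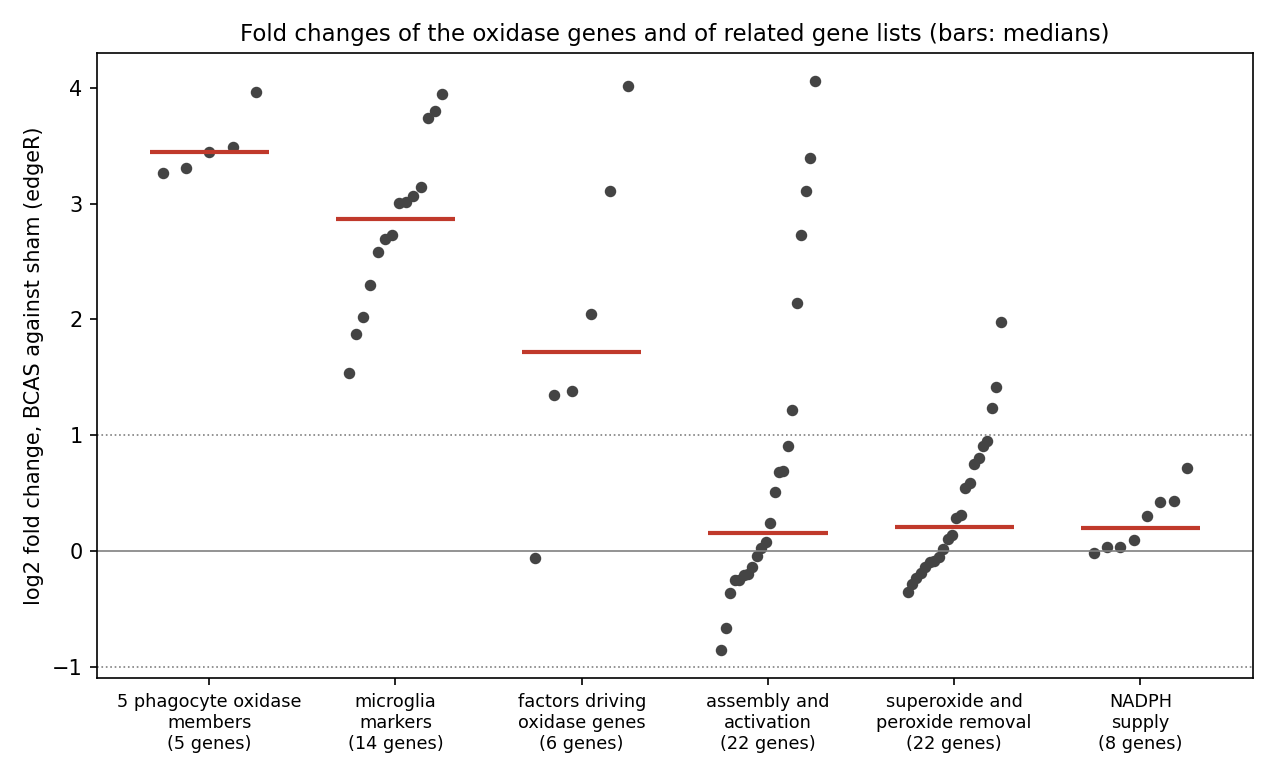
The log2 fold change of each gene (points) and the median of each list (red bars) for the 5 phagocyte oxidase genes, 14 microglia markers, 6 factors, 22 assembly genes, 22 genes of superoxide and peroxide removal with related antioxidant genes and 8 NADPH supply genes, with dotted lines at -1 and 1. The medians were 3.45, 2.86, 1.72, 0.16, 0.21 and 0.20 in that order.

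Superoxide and peroxide are cleared by dismutases, catalase, glutathione peroxidases and peroxiredoxins, which thioredoxin, glutathione and the genes of their supply keep reduced. Of 22 genes of this defence, a list that also holds stress-induced genes such as Hmox1 and Nqo1, 3 were called higher, a share near the 8.47% of all tested genes, and the median log2 fold change was 0.21. Hmox1, for haem oxygenase 1, rose from 4.55 ± 0.598 to 17.9 ± 4.46 CPM (SD, n = 3; log2 fold change 1.98, adjusted P = 0.000159 in edgeR). Prdx6, a peroxiredoxin that is high in astrocytes, rose from 197.5 ± 5.85 to 528.2 ± 33.7 CPM (log2 fold change 1.42, adjusted P = 1.71e-05). Astrocyte markers moved with it. All 5 of 5 passed the adjusted P and were higher, Gfap (3.29) and Aqp4 (1.67) were called, and their sum was 1359 to 1499 CPM in sham and 5326 to 5833 CPM in BCAS libraries. Their part in the rise of Prdx6 was not tested. Gpx3, named after its values were seen, was the third, at 1.24. With the adjusted P alone 10 of 22 were higher and 3 lower, beside 18% and 13.2% of all tested genes. The mitochondrial dismutase gene Sod2 was among the lower ones, at 171.9 ± 3.39 and 141.4 ± 14.2 CPM (log2 fold change -0.28, adjusted P = 0.0339 in edgeR). Gpx4, for the peroxidase of membrane lipids, did not pass (0.10, adjusted P = 0.404).

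NADPH, the electron donor of the oxidase, comes mainly from the pentose phosphate pathway. Of 8 tested supply genes, 4 passed the adjusted P, all higher and all below the fold threshold, where 18% of all tested genes were higher by the adjusted P alone. They were Pgd (log2 fold change 0.72), G6pdx (0.43) and Pgls (0.43) of the oxidative steps of the pathway and Nadk (0.31), the kinase that makes NADP. Tkt (0.09), Taldo1 (0.03), Me1 (0.03) and Idh1 (-0.02) did not pass. The list had a median log2 fold change of 0.20, and Nnt did not pass the filter on low counts.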

How the data were processed

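RNA was sequenced as paired-end reads from the right hippocampus of 3 sham and 3 BCAS mice, grouped by their labels. Per the methods, labels and file headers, the authors trimmed reads with Trim Galore, aligned them to mm10 with HISAT2, and deposited raw counts per gene made with featureCounts. The headers name version 2.0.3 and GENCODE M20, whereas the notes name version 1.6.3 and the methods RefSeq genes. The annotation of the headers was used, and exonic lengths, overlaps and RPKM depend on it. The headers also show that mates were counted separately, that strand was ignored and that reads aligned to several places were left out. These counts were neither normalized nor filtered. Of 54752 genes, 54723 were matched to a symbol.

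Genes were kept by filterByExpr, scaled with TMM factors and tested by the quasi-likelihood test of edgeR (R 4.3.3, edgeR 4.0.16, limma 3.58.1), without a replicate block and with Benjamini-Hochberg adjustment over 18617 genes. Log2 CPM used a prior count of 2. Each of 11 differences between log2 CPM values was tested with an exact two-sided permutation test over the 6 mice. RPKM used the exonic length in the files. The fit was also run on simulated data, and the outcome is not reported here. Alternatives were DESeq2 1.42.0, limma-voom, other scalings, filters and thresholds, thinned counts, counts divided by 2, the replicate block and leaving out each mouse.

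The members and gene lists were chosen with earlier results of these data known. Genes named are the 7 members, genes of lists of up to 9 genes, in longer lists the 3 with the highest mean CPM and the 2 with the largest fold change, and the 3 nearest profiles of each member. Others, such as Rac3, P2ry12, Ly6g and the genes that overlap a member, were named after their values were seen. Marker lists are given by counts and sums. Protein sequences were not used here, and some genes of the lists are not reported here.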

Additional observations from a re-analysis of the deposited data

How the results depend on the processing

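Of the 7 oxidase genes, 5 to 6 were called in every one of 17 alternatives, and Cybb, Cyba, Ncf1, Ncf4 and Rac2 were called in all of them, with log2 fold changes of 3.80 to 4.23, 3.06 to 3.40, 2.99 to 3.47, 3.16 to 3.69 and 3.18 to 3.65. The Nox4 call was lost when 1 of sham mice 1 and 2 or BCAS mice 1 and 3 was left out, and with glmTreat against a log2 fold change of 1 (adjusted P = 0.743), and with counts divided by 2 the gene was not tested. Its low counts limit the precision, and its log2 fold change ran from 1.17 to 2.20. The Rac1 log2 fold change was 0.054 with library totals and ran from -0.055 to 0.016 when each mouse was left out, at 0.007 without sham mouse 3 and 0.016 if BCAS mouse 1 was left out. The shift of Ncf1 against Ncf4 was 0.065 with a prior count of 5 and ran from -0.29 to 0.11 when each mouse was left out (0.019 without sham mouse 1, 0.11 without sham mouse 3, 0.085 without BCAS mouse 2). The cause of these turns was not tested. Of all tested genes 1762 were called, 5819 without a fold threshold, 818 with glmTreat and 1306 to 1976 when each mouse was left out. The 186 lower calls among them were 14 with glmTreat and 96 to 238 when each mouse was left out. In the pathway lists 14 genes were called, 34 without a fold threshold and 13 to 17 when each mouse was left out. The RPKM of Rac1 was 158.3 in sham and 155.8 in BCAS mice with its unshared length, since by construction fewer exonic bases divide the same counts. Same-numbered sham and BCAS mice had residual correlations of 0.036, -0.314 and -0.158, and differently numbered mice had -0.246 to 0.347. With 3 mice per group these values cannot tell whether the numbers pair the mice. With the replicate block 1595 genes and 6 members were called.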
